A study of Mus musculus with 12 samples.

Results

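The tumour necrosis factor (TNF) superfamily genes described here are 6 ligands, Tnfsf4 (OX40 ligand), Tnfsf8 (CD30 ligand), Tnfsf9 (4-1BB ligand), Tnfsf10 (TRAIL), Tnfsf11 (RANK ligand) and Tnfsf14 (LIGHT), and 4 receptors, Tnfrsf4 (OX40), Tnfrsf9 (4-1BB), Tnfrsf1b (TNF receptor 2) and Cd27. They were taken by name: every non-control array probe that the scanner files name by 1 of these 10 symbols. That gave 12 probes for the 10 genes, of 55681 distinct probes on the array, and all 10 genes were among the 18544 genes tested. Tnfrsf9 and Cd27 had 2 probes each and the others 1. Tnfsf4 entered the tests only through WT cells at 3 h, the one group in which its probe was well above background on all 3 arrays. It therefore had to be higher there than elsewhere. Counts of calls on activation that are given over 9 genes leave it out, and those given over the 10 genes include it.

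Most ligands of the TNF superfamily are trimeric proteins in the cell membrane, and each engages receptors on a neighbouring cell that carry cysteine-rich repeats outside the cell. Costimulatory receptors such as OX40, 4-1BB, CD27 and TNF receptor 2 recruit TNF receptor associated factors (TRAFs) and switch on NF-kB, while the death receptors bound by TRAIL and Fas ligand recruit death-domain adaptors. Regulatory T cells (Treg), the CD4 T cells that restrain immune responses, are known for high levels of OX40, TNF receptor 2 and the related receptor GITR, encoded by Tnfrsf18.

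RNA of Treg sorted from the spleens of female C57BL/6 mice was measured on 12 single-colour Agilent arrays, 3 in each of 4 groups. WT denotes mice labelled CD83 WT, 9 weeks old, and KO denotes mice labelled CD83cKO, a conditional deletion whose Cre driver the labels do not name. KO replicates 1 and 2 at each time were from mice of 10 weeks, and KO replicate 3 at 0 h and KO replicate 3 at 3 h were from mice of 21 weeks. Cells were either not activated (0 h) or activated for 3 h with antibodies to CD3 and CD28, which engage the T cell receptor complex and its costimulatory receptor. The labels count 6 mice for 12 arrays without saying which arrays came from which mouse, so some arrays share a mouse and the p-values measure the spread between arrays. All KO arrays lay on 1 slide, WT at 0 h on another and WT at 3 h on a further one. Genotype and slide cannot be told apart, nor can time and slide in WT, whereas 3 h against 0 h in KO lies within 1 slide.

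Values are normalized log2 signals: log2 of the background-subtracted spot signal minus that array's 75th percentile, taken over 19798 probes that the scanner software called well above background throughout the 12 arrays. A difference of 1 is a doubling, and levels are compared only within a probe. Differences are given ± the standard error (SE) of 1 limma model of the 4 group means, and "rose" and "fell" mean an adjusted p (Benjamini-Hochberg over the 18544 genes) under 0.05. Between 43.06% and 54.62% of the probes on an array were well above background.

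Cd83 itself was lower in KO than in WT by 1.88 ± 0.265 at 0 h (limma, difference -1.88, adjusted p = 0.0089) and by 2.50 ± 0.265 at 3 h (difference -2.50, adjusted p = 0.0023), with no overlap between the genotypes. Both 21-week arrays stood apart in cell markers. Relative to the mean of WT at 0 h, the average of the 10 T cell markers was -1.73 and -2.69 on the 21-week arrays at 0 h and 3 h, and between -0.86 and 0.08 on the other 10 arrays. The 10 Treg markers averaged -2.43 and -2.24 on the 21-week arrays and between -0.70 and 0.09 elsewhere. Foxp3, the defining Treg factor, was well above background on 0 of 6 WT arrays, so that probe does not check the sort. Foxp3 was tested only through KO cells, so it had to be higher there. It is part of the Treg average and read higher on every KO array than on any WT array. The 4 plasma cell markers averaged 5.96 and 6.67 on the 21-week arrays. The 10-week KO arrays lay at 1.89 and 1.87 at 0 h and at 0.39 and 2.24 at 3 h. The WT arrays lay between -0.28 and 0.33 at 0 h and between 0.33 and 0.87 at 3 h. Of 12 monocyte and macrophage markers, limma called 10 higher in KO at 0 h and 10 at 3 h, beside 1.82% and 1.26% of all genes. Without the 21-week arrays it called 10 and 8, beside 4.71% and 1.39%. By position of the arrays, KO lay wholly above WT for 12 markers at 0 h and 11 at 3 h. Of all genes, 16.9% and 11.8% did. Their summed signal, in units of the array's 75th percentile, was 5.12 to 8.92 in WT and 26.1 to 37.9 in KO at 0 h, and 1.28 to 1.94 in WT and 7.64 to 13.0 in KO at 3 h. The part of these cell markers in the differences below was not tested, and in RNA from a whole sorted population fewer cells of a type and less RNA per cell cannot be told apart. Among other cell markers, the 3 erythroid markers tested averaged 2.65, 3.44 and 2.61 on the KO arrays at 0 h, and the 7 dendritic cell markers tested 2.14, 1.43 and 2.77. The WT arrays at 0 h lay between -1.22 and 1.15 and between -0.30 and 0.30 for these lists. The summed erythroid signal at 0 h was 3.28 to 13.0 in WT and 30.8 to 58.3 in KO. The summed dendritic cell signal, 16.6 to 20.2 in WT and 12.9 to 18.6 in KO at 0 h, was not higher in KO. The 9 B cell markers tested averaged 1.94, 0.41 and 1.70 in KO at 0 h and -0.22, 0.93 and -0.71 in WT. Results for the 10 genes, and counts for the related lists, are therefore given over 12 arrays and over the 10 arrays without the 21-week mice, a fit with 6 residual degrees of freedom in place of 8.

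Activation for 3 h was followed by called changes in both directions. Of the 9 genes other than Tnfsf4, 3 rose in WT (Tnfsf8, Tnfsf9 and Tnfrsf9) and 2 fell (Tnfsf10 and Tnfsf14), where 29.9% of all genes tested were called, 13.3% as rises and 16.6% as falls. In KO, 2 of the 9 rose (Tnfsf9 and Tnfrsf9) and 1 fell (Tnfsf10), where 17.2% of all genes were called, 7.38% as rises and 9.79% as falls. With the 21-week arrays left out, 5 of the 9 rose and 2 fell in WT, where 55.8% of all genes were called, 24.2% as rises and 31.6% as falls; the uncalled were Tnfsf11 and Cd27. In KO 6 of the 9 rose and 2 fell, with Cd27 uncalled, where 46.2% of all genes were called, 20.2% as rises and 25.9% as falls. The median difference of the 9 genes was 0.74 in WT and 1.17 in KO, against -0.14 and -0.04 over all genes. Within the single KO slide, fitted on the 6 KO arrays alone, 0 of the 10 genes and 104 of 18544 were called by limma, while 4 of the 10 genes and 3426 of all genes had an unadjusted p under 0.05. The 4 genes called in KO over 12 arrays had adjusted p-values there of 0.14 (Tnfsf4), 0.246 (Tnfsf9), 0.169 (Tnfsf10) and 0.217 (Tnfrsf9), at the same differences.

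**Figure D1:**
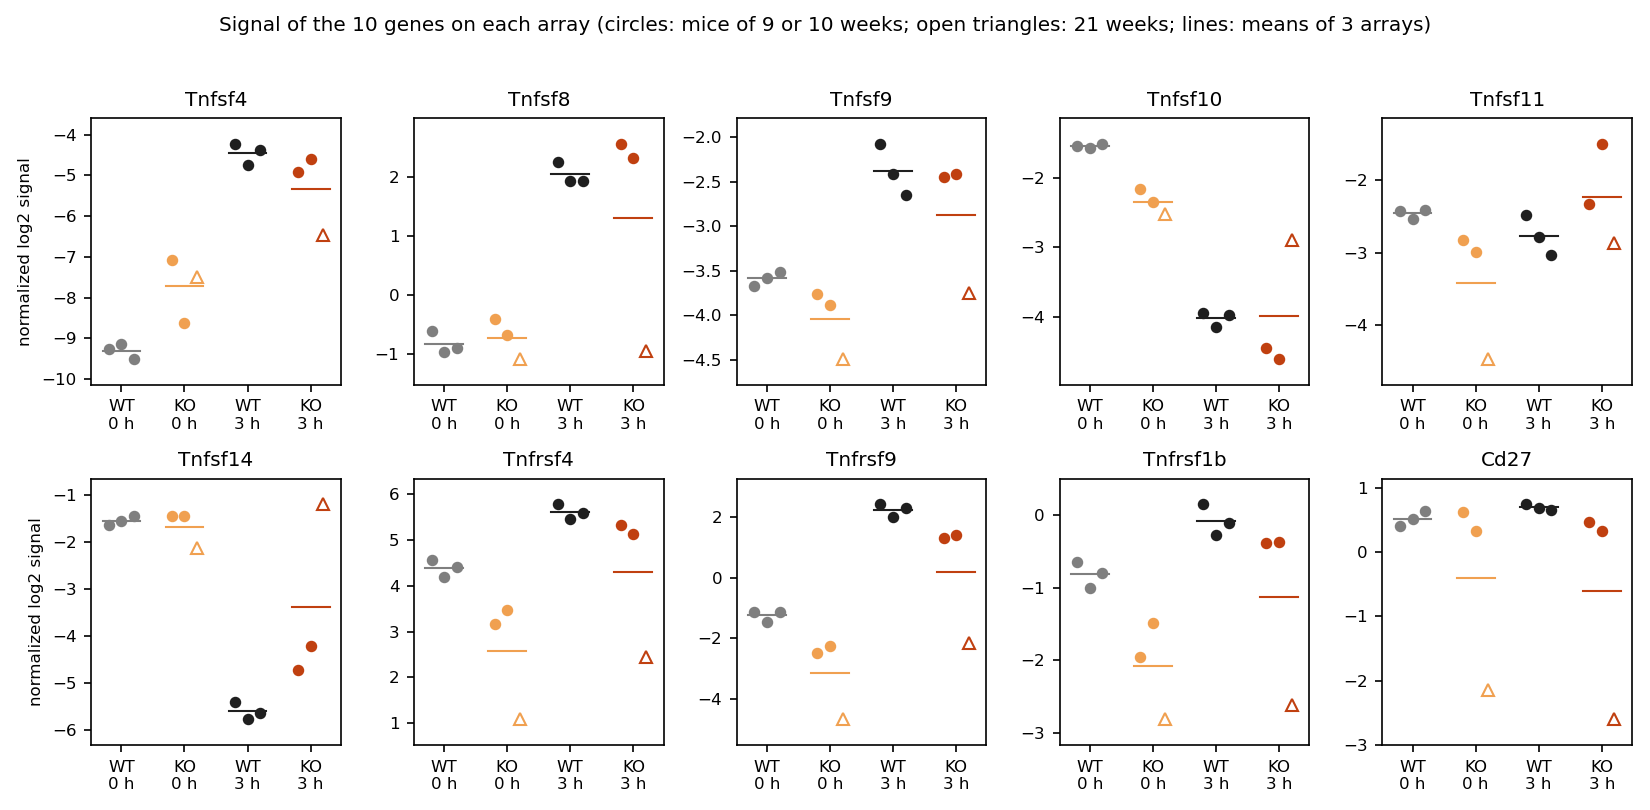
Normalized log2 signal of the 10 genes on each of the 12 arrays, 1 panel per gene with its own vertical scale, by genotype (WT, KO) and time (0 h, 3 h); circles are mice of 9 or 10 weeks, open triangles the 21-week mice, and lines the means of 3 arrays. In Tnfsf8 and Tnfsf14 the 21-week KO array at 3 h lies at -0.95 and -1.21, near the 0 h arrays, while the 10-week KO arrays at 3 h lie at 2.55 and 2.31 for Tnfsf8 and at -4.74 and -4.23 for Tnfsf14.

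Among the ligands, Tnfsf4 encodes the ligand of OX40. Its signal was -9.27, -9.14 and -9.51 on the WT arrays at 0 h and -4.23, -4.73 and -4.38 on the WT arrays at 3 h. It was -7.07, -8.62 and -7.49 in KO at 0 h and -4.92, -4.60 and -6.46 in KO at 3 h. All 3 h arrays lay above all 0 h arrays. The probe was well above background on 0 of 3 WT arrays at 0 h, 1 of 3 KO arrays at 0 h, 3 of 3 WT arrays at 3 h and 2 of 3 KO arrays at 3 h. In WT it rose at least 7.36-fold, a bound that holds the 0 h arrays at the dimmest signal counted as well above background on each (limma on the measured values, difference 4.86 ± 0.494, adjusted p = 0.000243). In KO it rose by 2.40 ± 0.494 (adjusted p = 0.0104), or 3.08 ± 0.437 without the 21-week arrays (adjusted p = 0.000906). The size of these differences depends on how background is treated: with normexp correction, which adds an offset to dim signals, they were 1.37 ± 0.172 in WT (adjusted p = 0.000466) and 0.98 ± 0.172 in KO (adjusted p = 0.00486).

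Tnfsf8 encodes the ligand of CD30, a receptor of activated lymphocytes. Its signal was -0.62, -0.98 and -0.90 in WT at 0 h and 2.25, 1.93 and 1.93 in WT at 3 h. In KO it was -0.42, -0.68 and -1.09 at 0 h and 2.55, 2.31 and -0.95 at 3 h. The groups did not overlap in WT, while in KO the 21-week array at 3 h lay among the 0 h arrays. The rise in WT was 7.33-fold (difference 2.87 ± 0.740, limma adjusted p = 0.0161). It lost its call without WT replicate 2 at 0 h (2.80, adjusted p = 0.0517) or without WT replicate 1 at 3 h (2.77, adjusted p = 0.0547). In KO the difference was 2.03 ± 0.740 (adjusted p = 0.0875), not called, and 2.98 ± 0.18 without the 21-week arrays (adjusted p = 2.23e-05). Leaving out KO replicate 3 at 3 h alone gave 3.16 ± 0.217 (adjusted p = 3.61e-05).

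Tnfsf9 encodes the ligand of 4-1BB. Signals in WT were -3.67, -3.58 and -3.51 at 0 h and -2.08, -2.41 and -2.65 at 3 h, with no overlap. Signals in KO were -3.76, -3.88 and -4.49 at 0 h and -2.45, -2.41 and -3.75 at 3 h, where the 21-week array at 3 h lay just above the highest 0 h array. The gene rose 2.30-fold in WT (1.20 ± 0.349, limma adjusted p = 0.0265) and 2.26-fold in KO (1.17 ± 0.349, adjusted p = 0.0444). Both calls were marginal. In WT the adjusted p was 0.0645 to 0.0946 when any one of the WT arrays at 0 h, or WT replicate 1 or 2 at 3 h, was left out (differences 1.05 to 1.24). In KO it was 0.0599 to 0.147 when any one array other than KO replicate 3 at 3 h was left out (differences 0.95 to 1.32). Without both 21-week arrays the rises were 1.20 ± 0.142 in WT (adjusted p = 0.000207) and 1.39 ± 0.173 in KO (adjusted p = 0.000481).

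Tnfsf10 encodes TRAIL, a ligand that can trigger apoptosis through death receptors. It was -1.54, -1.56 and -1.51 on the WT arrays at 0 h, listed by replicate, and -3.94, -4.15 and -3.97 on the WT arrays at 3 h. KO arrays read -2.16, -2.34 and -2.52 at 0 h and -4.45, -4.61 and -2.90 at 3 h. Each 3 h array lay below each 0 h array of its genotype. Tnfsf10 fell by 2.48 ± 0.370 in WT (limma difference -2.48, adjusted p = 0.00124), and every alternative tried kept that call. In KO it fell by 1.65 ± 0.370 (difference -1.65, adjusted p = 0.0148). That call was lost without KO replicate 1 at 3 h (-1.42, adjusted p = 0.0551) or KO replicate 2 at 3 h (-1.34, adjusted p = 0.0541), and it was -2.28 ± 0.118 without the 21-week arrays (adjusted p = 1.3e-05).

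Tnfsf14 encodes LIGHT, which binds the herpesvirus entry mediator and the lymphotoxin beta receptor. WT arrays gave -1.65, -1.57 and -1.45 at 0 h and -5.41, -5.78 and -5.65 at 3 h. KO arrays gave -1.46, -1.46 and -2.13 at 0 h and -4.74, -4.23 and -1.21 at 3 h. The 2 KO arrays of 10-week mice at 3 h lay far below all 0 h arrays, and the 21-week array at 3 h lay above every 0 h array. Tnfsf14 fell by 4.06 ± 0.724 in WT, a 16.6-fold drop (limma difference -4.06, adjusted p = 0.003). In KO the difference was -1.71 ± 0.724 (adjusted p = 0.135), not called, and -3.02 ± 0.187 without the 21-week arrays (adjusted p = 2.49e-05).

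Tnfsf11 encodes RANK ligand, which drives osteoclast formation and lymph node development. Its signal in WT was -2.42, -2.53 and -2.41 at 0 h and -2.48, -2.78 and -3.03 at 3 h, with overlapping groups. In KO it was -2.82, -2.99 and -4.47 at 0 h and -2.33, -1.50 and -2.86 at 3 h, also overlapping. The difference on activation was -0.31 ± 0.442 in WT (limma adjusted p = 0.646) and 1.20 ± 0.442 in KO (adjusted p = 0.0916). The KO value over 10 arrays was 0.99 ± 0.268 and passed the test (adjusted p = 0.0177), so Tnfsf11 was the one ligand that rose in 10-week KO cells and was not called in WT (-0.31 ± 0.219, adjusted p = 0.269). The difference between both activation effects was 1.50 (95% interval 0.11 to 2.90), which did not pass the test over all genes (adjusted p = 1).

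Among the receptors, Tnfrsf9 encodes 4-1BB, a costimulatory receptor induced on activated T cells. On the brighter of its 2 probes it had the largest rise on activation among the 4 receptors, which did not hold on its second probe. On the brighter probe (chr4:150319101-150319160, plus strand, mm9), which stands for the gene in the tests, WT arrays read -1.15, -1.45 and -1.12 at 0 h and 2.41, 2.01 and 2.29 at 3 h. KO arrays read -2.47, -2.25 and -4.67 at 0 h and 1.30, 1.39 and -2.16 at 3 h. The 0 h and 3 h arrays did not overlap in either genotype. Tnfrsf9 rose 11.1-fold in WT (3.48 ± 0.899, limma adjusted p = 0.0164) and 9.93-fold in KO (3.31 ± 0.899, adjusted p = 0.0322). Without the 21-week arrays the rises were 3.48 ± 0.140 (adjusted p = 1.7e-06) and 3.71 ± 0.172 (adjusted p = 9.45e-06). Over 12 arrays the WT call was lost without WT replicate 2 at 0 h (3.37, adjusted p = 0.0528), WT replicate 1 at 3 h (3.39, adjusted p = 0.0537) or WT replicate 3 at 3 h (3.45, adjusted p = 0.0503). The KO call was lost without KO replicate 1 or 3 at 0 h, KO replicate 1 or 2 at 3 h, or any one WT array other than replicate 1 at 0 h (differences 2.54 to 3.64, adjusted p 0.0501 to 0.112).

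The second Tnfrsf9 probe (chr4:150319582-150319641, plus strand, mm9) gave the same direction on activation at a smaller size. It read -1.50, -1.56 and -1.66 in WT at 0 h, -0.33, -0.37 and -0.49 in WT at 3 h, -2.04, -1.40 and -1.42 in KO at 0 h and -1.0, -0.69 and -1.11 in KO at 3 h. Its rise was 1.18 ± 0.199 in WT (limma fit of every probe, adjusted p = 0.0024) and 0.69 ± 0.199 in KO (adjusted p = 0.0418). The 21-week arrays did not stand apart on it, while they were the lowest of their groups on the brighter probe. The probe sequences are shown because they differ in the last 30 bases, where the second probe ends in an alternation of G and T, given in capitals, whose run is 22 bases long. The cause of the disagreement was not tested.
Tnfrsf9 brighter probe, last 30 bases: taacatatttgtctttaccttttttaaatc
Tnfrsf9 second probe, last 30 bases: taaaatcaGTGTGTGTGTGTGTGTGTGTGT

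Tnfrsf4 encodes OX40. WT arrays read 4.57, 4.20 and 4.41 at 0 h and 5.78, 5.47 and 5.60 at 3 h, with no overlap. KO arrays read 3.16, 3.46 and 1.08 at 0 h and 5.32, 5.13 and 2.44 at 3 h, where the 21-week array at 3 h lay below both 10-week arrays at 0 h. The differences on activation, 1.23 ± 0.768 in WT (limma adjusted p = 0.26) and 1.73 ± 0.768 in KO (adjusted p = 0.151), were not called over 12 arrays. Over 10 arrays Tnfrsf4 rose by 1.23 ± 0.142 in WT (adjusted p = 0.000191) and by 1.92 ± 0.174 in KO (adjusted p = 0.000118).

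Tnfrsf1b encodes TNF receptor 2, the receptor through which TNF acts on Treg. WT arrays read -0.64, -1.0 and -0.80 at 0 h and 0.15, -0.27 and -0.11 at 3 h. KO arrays read -1.95, -1.48 and -2.81 at 0 h and -0.38, -0.37 and -2.61 at 3 h. The WT groups did not overlap, and in KO the 21-week array at 3 h again lay among the 0 h arrays. The differences of 0.74 ± 0.552 in WT (limma adjusted p = 0.347) and 0.96 ± 0.552 in KO (adjusted p = 0.259) were not called. Without the 21-week arrays they were 0.74 ± 0.164 (adjusted p = 0.00571) and 1.34 ± 0.201 (adjusted p = 0.00119).

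Cd27 encodes the receptor of CD70 and is present on most resting T cells. WT arrays read 0.41, 0.51 and 0.64 at 0 h and 0.74, 0.69 and 0.65 at 3 h. KO arrays of 10-week mice read 0.63 and 0.32 at 0 h and 0.47 and 0.33 at 3 h, and the 21-week arrays -2.14 and -2.60. Cd27 was the gene of the 10 that activation left without a call in every fit given here: 0.17 ± 0.851 in WT (limma adjusted p = 0.908) and -0.20 ± 0.851 in KO (adjusted p = 0.9), or 0.17 ± 0.110 (adjusted p = 0.216) and -0.08 ± 0.135 (adjusted p = 0.657) without the 21-week arrays. The 95% interval over 12 arrays, from -1.72 to 2.07 in WT, does not show that the level stayed the same. The second Cd27 probe moved in parallel, with differences of 0.23 in WT and -0.14 in KO.

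**Figure D2:**
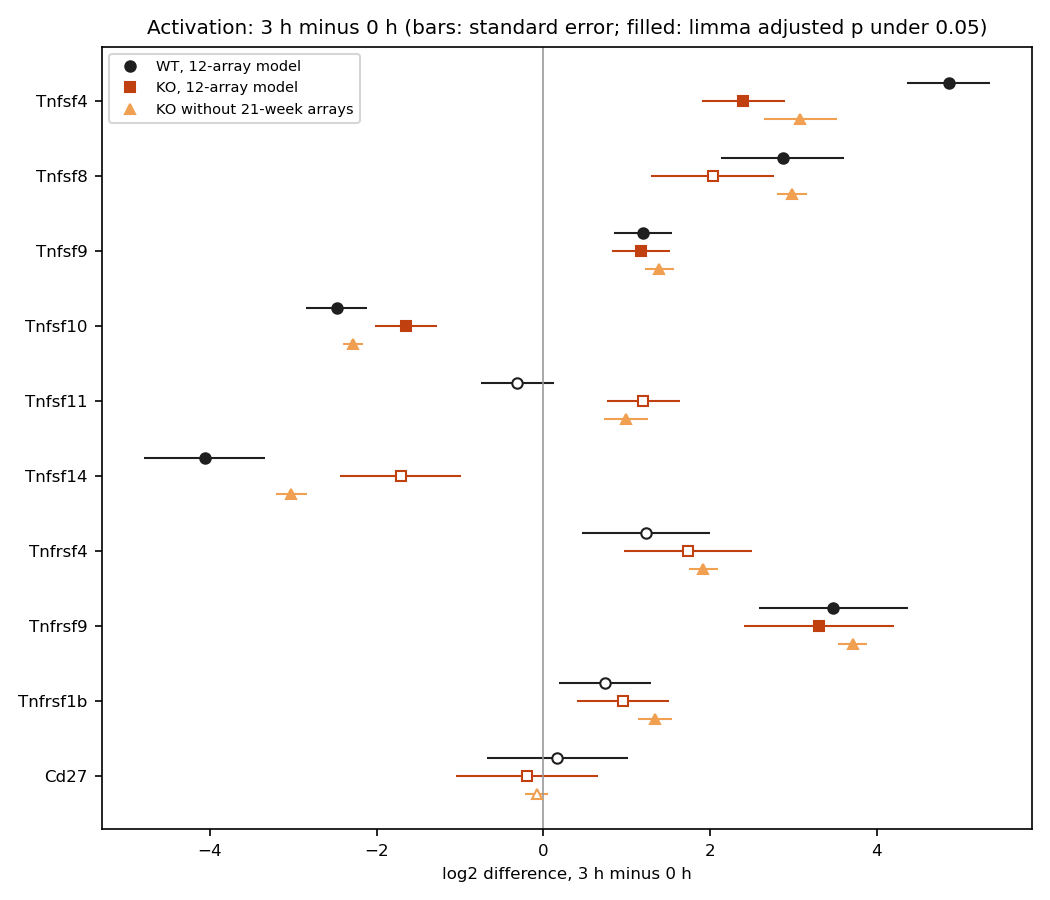
Differences on activation (3 h minus 0 h, log2) of the 10 genes in WT and KO from the 12-array model and in KO without the 21-week arrays; bars are SE and filled symbols have a limma adjusted p under 0.05. Tnfsf10 and Tnfsf14 lie left of 0 in all fits shown, and Tnfsf14 in KO moves from -1.71 to -3.02 when the 21-week arrays are left out.

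Promoter windows are shown for the genes called on activation in WT that the RefSeq table used here holds, because these are the genes whose levels changed within 3 h, Tnfsf8 and Tnfrsf9 upward and Tnfsf10 and Tnfsf14 downward. The table matched 8 of the 10 genes in 9 windows (assembly GRCm38.p6); Tnfsf4 and Tnfsf9 were not matched. Each window is the 250 bases before the start site, read 5′ to 3′ on the gene's strand, and capitals mark matches on either strand to the NF-kB consensus, to the AP-1 consensus TGANTCA or to the cyclic AMP response element TGACGTCA.
Tnfrsf9 first start site, chr4:150919905-150920154 (+ strand): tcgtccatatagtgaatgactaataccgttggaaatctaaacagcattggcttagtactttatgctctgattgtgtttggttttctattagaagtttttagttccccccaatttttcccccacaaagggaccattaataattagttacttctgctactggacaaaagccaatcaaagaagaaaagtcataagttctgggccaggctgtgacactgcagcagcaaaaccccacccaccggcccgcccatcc
Tnfrsf9 second start site, chr4:150927749-150927998 (+ strand): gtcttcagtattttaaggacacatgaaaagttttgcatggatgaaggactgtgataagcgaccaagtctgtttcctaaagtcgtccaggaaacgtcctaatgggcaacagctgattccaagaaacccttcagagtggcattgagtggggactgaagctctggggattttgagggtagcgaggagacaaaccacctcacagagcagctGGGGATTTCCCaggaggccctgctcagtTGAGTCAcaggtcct
Tnfsf14, chr17:57194182-57194431 (- strand): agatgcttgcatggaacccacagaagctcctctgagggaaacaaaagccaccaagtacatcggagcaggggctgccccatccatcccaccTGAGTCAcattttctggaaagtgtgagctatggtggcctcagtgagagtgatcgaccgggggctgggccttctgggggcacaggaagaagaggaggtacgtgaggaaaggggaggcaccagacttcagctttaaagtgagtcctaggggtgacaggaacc
Tnfsf8, chr4:63861285-63861534 (- strand): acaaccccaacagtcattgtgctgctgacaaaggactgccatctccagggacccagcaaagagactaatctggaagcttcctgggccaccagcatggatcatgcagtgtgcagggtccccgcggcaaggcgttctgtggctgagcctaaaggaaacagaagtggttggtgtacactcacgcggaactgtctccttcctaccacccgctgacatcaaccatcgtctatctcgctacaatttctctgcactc
Tnfsf10, chr3:27316827-27317076 (+ strand): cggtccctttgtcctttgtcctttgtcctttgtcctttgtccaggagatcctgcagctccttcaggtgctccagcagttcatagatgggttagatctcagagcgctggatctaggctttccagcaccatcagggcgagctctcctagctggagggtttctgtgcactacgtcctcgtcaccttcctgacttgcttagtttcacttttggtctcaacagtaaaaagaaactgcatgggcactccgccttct
Of the 9 windows, 1 held an NF-kB match, the second start site of Tnfrsf9, where GGGGATTTCC and GGGATTTCCC overlap between 43 and 33 bases before the start. That window also held TGAGTCA, 15 to 9 bases before the start, and the Tnfsf14 window held TGAGTCA 160 to 154 bases before its start. Of 32851 promoter windows of the same length in the table, 7.25% held an NF-kB match, 6.75% an AP-1 match and 1.55% a cyclic AMP element. The core GGAAA of NFAT sites, which overlaps the NF-kB matches of Tnfrsf9 on the opposite strand, was in 55.6% of windows and is not capitalised. A gene that rose and a gene that fell thus share the AP-1 letters, and the windows of Tnfsf8 and Tnfsf10 held none of the capitalised motifs. These are matches of letters, not tested sites.

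Between genotypes, 3 receptors (Tnfrsf4, Tnfrsf9 and Tnfrsf1b) and Tnfsf10 were lower in KO at 0 h, and these calls came in the fit without the 21-week arrays. Over 12 arrays, limma called 0 of the 10 genes at 0 h, where 2.08% of all genes were called, 1.82% as rises and 0.259% as falls. At 0 h 3 of the 10 had an unadjusted p under 0.05, beside 15.4% of all genes. At 3 h limma called 0 of the 10, where 1.45% of all genes were called, 1.26% as rises and 0.189% as falls. There 2 of the 10 had an unadjusted p under 0.05, beside 10.6% of all genes. On 10 arrays, 4 of the 10 fell at 0 h (Tnfsf10, Tnfrsf4, Tnfrsf9 and Tnfrsf1b), where 6.63% of all genes were called, 4.71% as rises and 1.91% as falls. At 3 h, 1 fell (Tnfrsf9) and 1 rose (Tnfsf14), where 1.98% of all genes were called, 1.39% as rises and 0.588% as falls. By position of the arrays at 0 h, KO lay wholly below WT for 6 of the 10 genes and wholly above for Tnfsf4, where 31.6% of all genes did not overlap, 14.8% below and 16.9% above. At 3 h, KO lay wholly below WT for the 4 receptors and wholly above for Tnfsf14, where 19.2% of all genes did not overlap, 7.39% below and 11.8% above. The WT arrays at 0 h enter both this comparison and that of activation in WT, and the KO arrays likewise, so these differences are not independent of those above.

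At 0 h, Tnfrsf9 was lower in KO by 1.89 ± 0.899 over 12 arrays (difference -1.89, limma adjusted p = 0.353) and by 1.12 ± 0.157 without the 21-week arrays (difference -1.12, adjusted p = 0.00971). The values above place the 3 KO arrays between -4.67 and -2.25 and the 3 WT arrays between -1.45 and -1.12. The second probe did not share this difference (-0.05 ± 0.199, adjusted p = 0.934). Tnfrsf4 was at -1.83 ± 0.768 (adjusted p = 0.295) and fell by 1.08 ± 0.159 without the 21-week arrays (difference -1.08, adjusted p = 0.0109). Its 10-week KO arrays at 3.16 and 3.46 lay below the lowest WT array at 4.20. Tnfrsf1b was at -1.27 ± 0.552 (adjusted p = 0.311) and fell by 0.90 ± 0.184 without them (difference -0.90, adjusted p = 0.031). Tnfsf10 was at -0.80 ± 0.370 (adjusted p = 0.341) and fell by 0.71 ± 0.108 (difference -0.71, adjusted p = 0.0119). Beside these, the 10 Treg markers averaged -0.21 and -0.24 on the 10-week KO arrays and -2.43 on the 21-week array at 0 h, and over 10 arrays 2 of them fell and 1 rose. Foxp3 is part of this average and ran against it, at -6.27, -6.04 and -2.86 in KO and -8.63, -9.06 and -9.42 in WT. As it was tested only through KO cells, it had to be higher in KO. By position of the arrays at 0 h, KO lay wholly below WT for 8 of the 10 markers and wholly above for Foxp3. Of all genes, 14.8% lay below and 16.9% above. The summed signal of the 10 Treg markers was 34.1 to 39.0 in WT and 11.5 to 23.4 in KO at 0 h, and 23.0 to 25.4 and 18.1 to 22.7 at 3 h. The part of this in the receptor values was not tested.

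Of the remaining genes at 0 h, all 3 Tnfsf4 readings in KO lay above those in WT. With no WT array and 1 KO array well above background, its size is not settled: the measured difference was 1.58 (limma adjusted p = 0.158), and it ran from 0.20 with normexp to 2.03 over the alternatives, so no fold is given. Tnfsf8, Tnfsf9, Tnfsf11, Tnfsf14 and Cd27 differed by 0.10, -0.46, -0.97, -0.13 and -0.92 over 12 arrays and by 0.28, -0.24, -0.45, 0.10 and -0.05 without the 21-week arrays, with no call. The 95% intervals over 12 arrays were wide, from -1.54 to 1.75 for Tnfsf8 and from -2.81 to 0.98 for Cd27.

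At 3 h, Tnfsf14 was higher in KO by 2.22 ± 0.724 over 12 arrays (limma adjusted p = 0.269), and it rose by 1.13 ± 0.171 without the 21-week arrays (adjusted p = 0.0182), with all 3 KO arrays above all WT arrays. Tnfrsf9 was at -2.06 ± 0.899 (adjusted p = 0.459) and fell by 0.89 ± 0.157 without them (difference -0.89, adjusted p = 0.0326). On its second probe the 3 h difference was -0.54 ± 0.199 (adjusted p = 0.378). Tnfrsf4, Tnfrsf1b and Cd27 lay at -1.32, -1.04 and -1.30 over 12 arrays and at -0.39, -0.30 and -0.30 without the 21-week arrays, uncalled in both. Fitted on the 6 arrays at 3 h alone, limma called 0 of 18544 genes, with 1396 at an unadjusted p under 0.05 and 0 of the 10 genes among them.

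**Figure D3:**
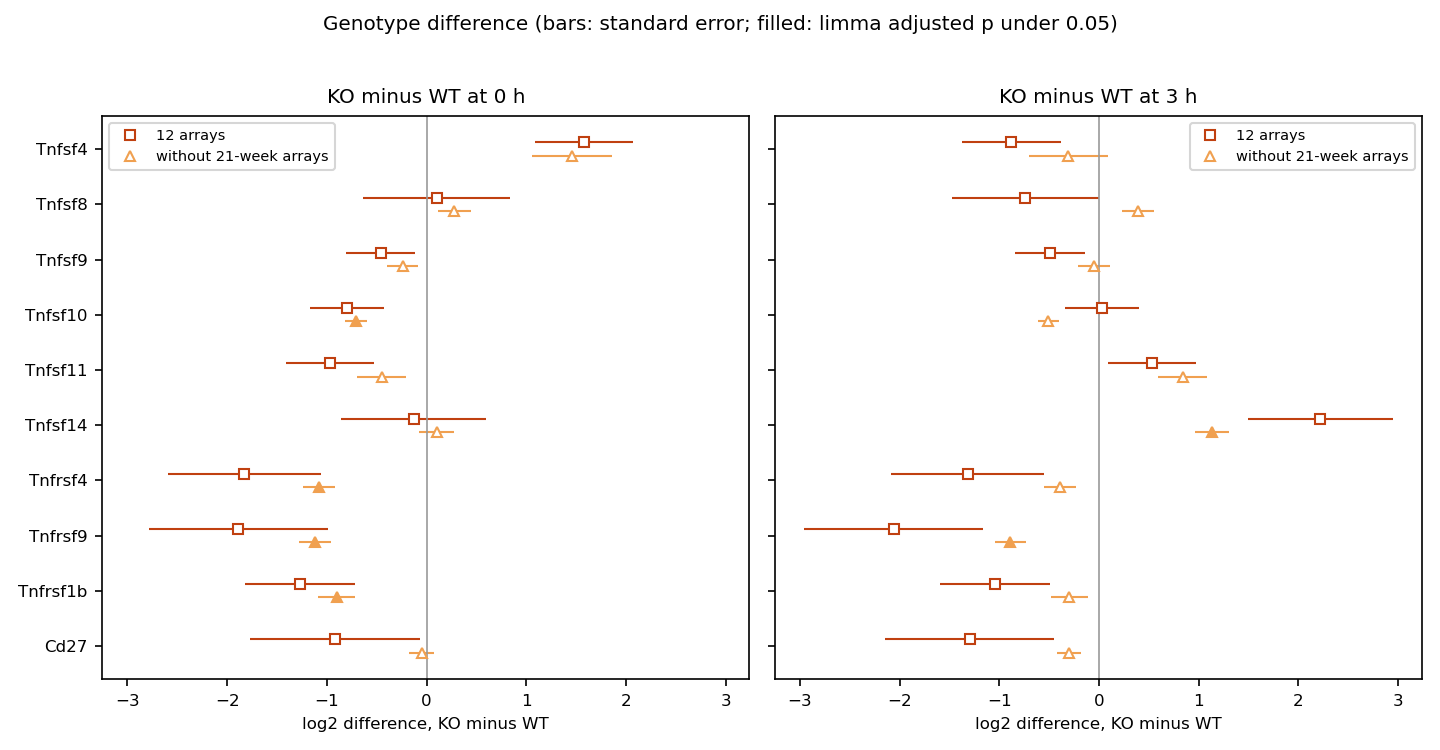
KO minus WT differences (log2) of the 10 genes at 0 h and at 3 h, over 12 arrays (squares) and without the 21-week arrays (triangles); bars are SE and filled symbols have a limma adjusted p under 0.05. At 0 h the filled symbols are Tnfsf10, Tnfrsf4, Tnfrsf9 and Tnfrsf1b, between -1.12 and -0.71, and at 3 h Tnfsf14 at 1.13 and Tnfrsf9 at -0.89.

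The 21-week KO arrays were set apart from the 10-week KO arrays in a limma model with KO split by age. The split was chosen after these arrays had been seen to stand apart, and each 21-week group is 1 array, assumed to vary like the other groups. Its p-values therefore describe the distance of single arrays, not a difference between mice of different age. At 0 h, 6 of the 10 were lower on the 21-week array, where 35.9% of all genes were called: Cd27 by 2.62 ± 0.165 (difference -2.62, adjusted p = 4.7e-05), Tnfrsf9 by 2.31 (difference -2.31), Tnfrsf4 by 2.23 (difference -2.23), Tnfsf11 by 1.56 (difference -1.56), Tnfrsf1b by 1.09 (difference -1.09) and Tnfsf9 by 0.67 (difference -0.67). At 3 h all 10 were called, where 48.1% of all genes were, 8 of them lower and Tnfsf10 and Tnfsf14 higher by 1.63 ± 0.145 (adjusted p = 7.68e-05) and 3.27 ± 0.229 (adjusted p = 2.51e-05). Between the single 21-week arrays at 3 h and 0 h, Tnfsf11, Tnfrsf4 and Tnfrsf9 were higher at 3 h by 1.61, 1.36 and 2.52 and were called in that model, as were 14.8% of all genes. The distance between these arrays differed from the effect in 10-week KO arrays for 4 of the 10 genes, as it did for 11% of all genes. These 2 arrays are those with low T cell and Treg markers and high plasma cell markers, and the mouse, its age and its cell mixture cannot be told apart.

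Whether activation acted differently in KO was tested by the difference of both effects. Limma called 0 of the 10 and 0 of 18544 genes (0%), with 687 genes at an unadjusted p under 0.05. Of the 10, Tnfsf4, Tnfsf11 (1.50, 95% interval 0.11 to 2.90) and Tnfsf14 (2.35, 0.07 to 4.63) had an unadjusted p under 0.05. For Tnfsf4 the measured value of -2.46 rests on WT signals at 0 h that were not well above background, and it was -0.38 with normexp. On 10 arrays the values for Tnfsf11 and Tnfsf14 were 1.30 and 1.03, with 0 genes called and 1983 at an unadjusted p under 0.05. For Tnfrsf9 the difference was -0.17 with an interval from -3.00 to 2.67, which leaves room for large effects either way.

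For each of the 10, the genes with the most similar profile over the 12 arrays were found by the root mean square difference of mean-centred log2 signal, where a smaller value is more alike. Tnfrsf4 lay nearest to Tnfrsf18, which encodes GITR, at 0.31, and then to Rgs9 at 0.35. The Tnfrsf4 and Tnfrsf18 probes lie 12.3 kb apart on chromosome 4 (mm9). Tnfrsf18 read 3.66, 3.43 and 3.58 in WT at 0 h, 2.75, 2.89 and 0.85 in KO at 0 h, 4.53, 4.40 and 4.36 in WT at 3 h and 4.24, 4.16 and 1.28 in KO at 3 h, so the 21-week arrays were the lowest of both genes. Tnfrsf1b lay nearest to Smim10l2a at 0.16 and to Icos, a costimulatory receptor, at 0.20. Tnfrsf9 lay nearest to Gm20558 at 0.45 and to the chemokine receptor Ccr8 at 0.46, and Cd27 to AI790276 at 0.17 and H2-T23 at 0.18. Among ligands, the nearest were Spag4 (0.46) and Sgip1 (0.49) for Tnfsf4, Plcxd2 (0.22) and Gch1 (0.28) for Tnfsf8, and Acot9 and Zfp747 (both 0.16) for Tnfsf9. For Tnfsf10 they were Ssbp4 (0.29) and Isoc2b (0.30), for Tnfsf11 Tagap (0.36) and Gramd1b (0.37), and for Tnfsf14 Mcoln3 (0.40) and 4930556H04Rik (0.47).

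**Figure D4:**
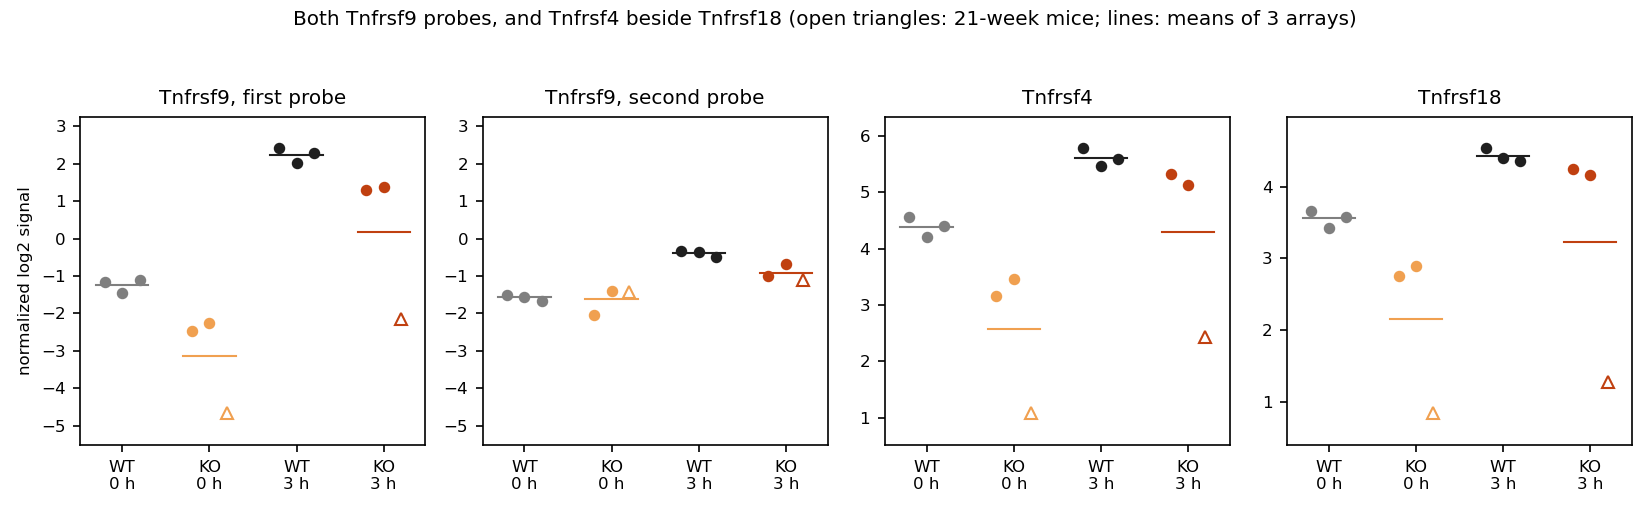
Normalized log2 signal on each of the 12 arrays for both Tnfrsf9 probes, which share a vertical scale, and for Tnfrsf4 and Tnfrsf18, each on its own scale; open triangles are the 21-week mice and lines the means of 3 arrays. The 21-week KO array at 0 h reads -4.67 on the first Tnfrsf9 probe and -1.42 on the second.

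The rest of the family moved in mixed directions on activation. Of 12 other ligands, 9 were tested, and in WT 1 rose and 3 fell, where 13.3% of all genes rose and 16.6% fell: Fasl, which encodes the death-inducing Fas ligand, rose by 1.59 ± 0.365 (limma adjusted p = 0.00951), while Tnfsf13b (BAFF, a B cell survival factor) fell by 1.45 ± 0.247 (difference -1.45, adjusted p = 0.00242), Lta (lymphotoxin alpha) by 2.57 ± 0.676 (difference -2.57, adjusted p = 0.0176) and Cd70, the ligand of CD27, by 2.64 ± 0.751 (difference -2.64, adjusted p = 0.0246). Cd70 was tested only through WT at 0 h and was well above background on 1 of 3 WT arrays at 3 h, so it had to be lower there. Tnfsf13b was tested only through the 0 h groups of WT and KO. At 3 h it was well above background on 2 of 3 arrays of each genotype, so the filter favoured its falls. In KO 1 of the 9 was called over 12 arrays, Fasl, with a rise of 1.59 ± 0.365 (adjusted p = 0.0162), where 7.38% of all genes rose and 9.79% fell. Over 10 arrays 1 rose and 4 fell in WT, where 24.2% of all genes rose and 31.6% fell. In KO 1 rose and 3 fell over 10 arrays, where 20.2% of all genes rose and 25.9% fell. The falls in KO were Lta (-2.21, limma adjusted p = 0.00031), Ltb (-1.28, adjusted p = 9.84e-05) and Tnfsf13b (-0.89, adjusted p = 0.0181). The median of the 9 was -0.48 in WT and -0.74 in KO.

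Of 24 other receptors, 19 were tested, and in WT 3 rose and 2 fell, beside 29.9% of all genes called. In KO 2 of the 19 rose and 2 fell, beside 17.2% of all genes called. The falls were Relt (-1.50) and Tnfrsf21 (-1.47), and Tnfrsf21 was tested only through KO at 0 h, so it had to be lower at 3 h. Over 10 arrays 5 rose and 7 fell in WT and 6 rose and 7 fell in KO, beside 55.8% and 46.2% of all genes called. These falls in KO include Tnfrsf21 and Tnfrsf17, both tested only through KO at 0 h. Those in WT include Tnfrsf8, tested only through WT at 0 h. Tnfrsf12a, the receptor of TWEAK, rose by 1.99 ± 0.220 in WT (limma adjusted p = 0.000356) and 2.36 ± 0.220 in KO (adjusted p = 0.00032). Tnfrsf23, a decoy receptor of TRAIL, rose by 1.85 ± 0.175 (adjusted p = 0.000186) and 2.29 ± 0.175 (adjusted p = 0.00012). Tnfrsf8, which encodes CD30, the receptor of the Tnfsf8 product, fell in WT by 1.58 ± 0.347 (difference -1.58, adjusted p = 0.00803). It was tested only through WT at 0 h and was well above background on 1 of 3 WT arrays at 3 h, so it had to be lower there. Between genotypes, limma called 2 of the 19 higher in KO at 0 h and 3 at 3 h, beside 1.82% and 1.26% of all genes. Over 10 arrays it called 4 higher and 2 lower at 0 h, beside 4.71% and 1.91% of all genes. At 3 h it called 4 higher over 10 arrays, beside 1.39% of all genes. Tnfrsf11a, the receptor of the Tnfsf11 product, was higher by 1.67 ± 0.211 at 0 h (adjusted p = 0.00607) and 2.10 ± 0.211 at 3 h (adjusted p = 0.00178). Tnfrsf21 was higher at least 5.23-fold at 0 h and 2.16-fold at 3 h, but it was tested only through KO at 0 h, with 0 of 6 WT arrays and 2 of 3 KO arrays at 3 h well above background, so it had to be higher there. Ltbr, a receptor of the Tnfsf14 product, was higher by 2.82 ± 0.543 at 3 h (adjusted p = 0.0351). They were higher beside the monocyte and macrophage, dendritic cell, erythroid and B cell marker values given above, whose part in this was not tested. Of these lists, the summed dendritic cell signal was not higher in KO at 0 h.

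Many NF-kB genes, which act downstream of these receptors, rose on activation in both genotypes. Of 13 NF-kB subunits and inhibitors, 12 were tested, and 8 rose in WT and 6 in KO, where 13.3% and 7.38% of all genes rose. Over 10 arrays 9 rose in WT and 9 in KO, where 24.2% and 20.2% of all genes rose. Nfkb2 rose by 2.15 ± 0.309 in WT (limma adjusted p = 0.00104) and 1.83 ± 0.309 in KO (adjusted p = 0.00464), and Nfkbid, an atypical inhibitor family member, by 2.62 ± 0.508 (adjusted p = 0.00439) and 2.58 ± 0.508 (adjusted p = 0.00865). Of 22 TRAF and death-domain genes, 4 rose and 4 fell in WT, and 4 rose and 1 fell in KO, beside 29.9% and 17.2% of all genes called. Over 10 arrays 8 rose and 5 fell in WT and 9 rose and 4 fell in KO, beside 55.8% and 46.2%. Tnfaip3, which encodes the NF-kB brake A20, rose by 4.74 ± 0.835 in WT (adjusted p = 0.00285) and 3.98 ± 0.835 in KO (adjusted p = 0.0111). Between genotypes limma called 0 genes of either list, at 0 h or 3 h and with or without the 21-week arrays. Unadjusted p-values under 0.05 were found at 0 h for 3 of 22 TRAF and death-domain genes and 0 of 12 NF-kB genes over 12 arrays. Over 10 arrays they were found at 0 h for 5 and 3. The shares of all genes at 0 h were 15.4% over 12 arrays and 27.6% over 10 arrays. At 3 h they were found for 0 genes of either list, beside 10.6% and 12.8% of all genes. The medians on activation, 1.11 and 1.23 for the NF-kB list and 0.11 and 0.43 for the TRAF list in WT and KO, stand beside -0.14 and -0.04 over all genes.

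**Figure D5:**
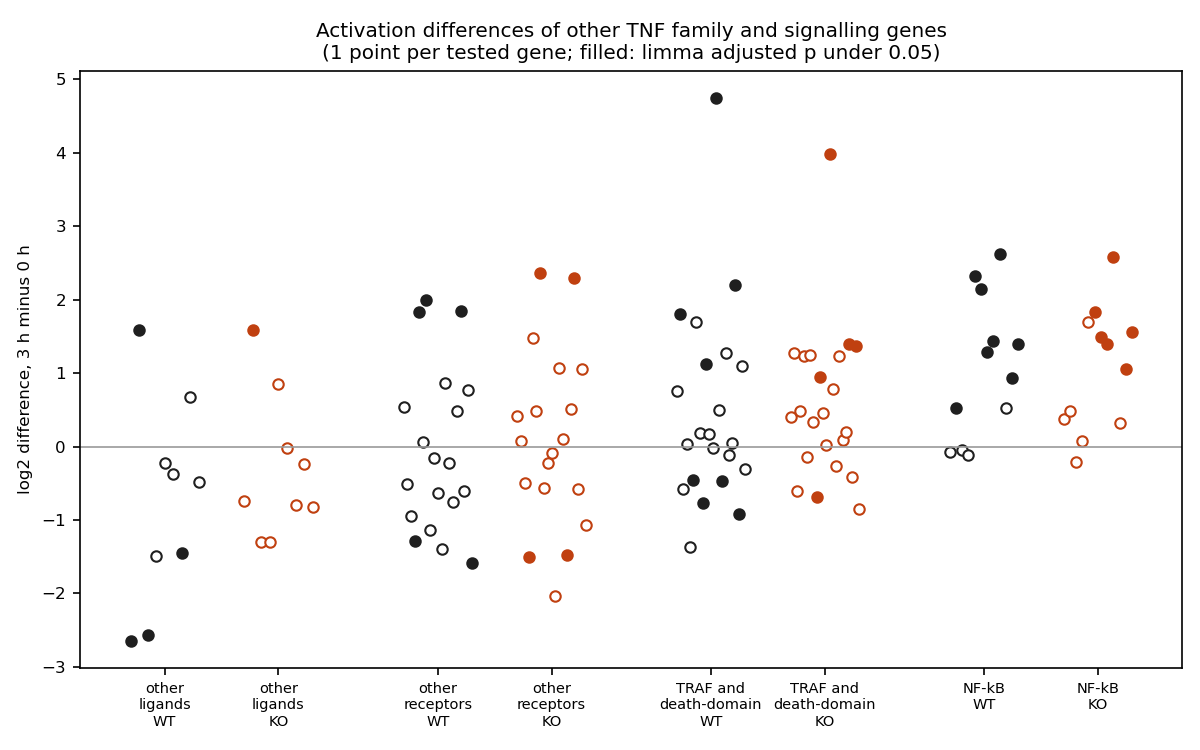
Differences on activation (3 h minus 0 h, log2) of other TNF superfamily ligands and receptors, TRAF and death-domain genes, and NF-kB subunits and inhibitors in WT (black) and KO (red), 1 point per tested gene; filled points have a limma adjusted p under 0.05. Filled points of the NF-kB genes all lie above 0, 8 in WT and 6 in KO.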

How the data were processed

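For each array the authors deposited a scanner file of linear intensity values per spot. Per the file headers it was written by Agilent Feature Extraction 10.7.3.1 (the submitters' processing notes give 11), and its processed signal is background-subtracted but not scaled between arrays. The authors' deposited value table holds log2 values whose scaling no source used here gives; every column had a median of 3.893 and followed its own array in rank, and the table served as an alternative. Control and outlier spots were left out and spots of a probe averaged. Normalization used the 75th percentile over probes detected on all arrays, because on average 46.41% of probes were well above background. Tests took probes that all 3 arrays of some group showed well above background, and each gene took the brightest of these. Probes were named through RefSeq accessions or symbols, and coordinates are those of the array design (mm9). The model was fitted with limma 3.58.1 in R 4.3.3 (lmFit, eBayes, two-sided, 8 residual degrees of freedom), and the steps were tested on simulated data. The number of arrays limits the precision. The labels' protocols give 20 ng of RNA as the input of sample 1 at 0 h, of unstated genotype, and 40 ng for the others. A fold against a group with only dim arrays is a lower bound. From the other family, TRAF and NF-kB lists, up to 4 called genes with the largest moderated statistic were eligible to be named in each comparison. The genes, lists and tests were chosen with earlier results of these data known, and the split of KO by age was added after the data were seen. Alternatives covered background correction, scaling, filters, probe choice, each array left out, age, array weights and 2-group fits.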

Additional observations from a re-analysis of the deposited data

Results flagged for a closer look

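For 4 of the 10 genes the distance between the single 21-week KO arrays at 3 h and 0 h differed from the activation effect on the 10-week KO arrays, in a limma model with KO split by age in which 11% of all genes were called. The split was prompted by these same arrays, and 1 array minus 1 array has no spread of its own, so the p-values do not test mice of different age. The difference, 21-week minus 10-week, was -2.84 ± 0.312 for Tnfsf8 (adjusted p = 0.00317), 1.90 ± 0.205 for Tnfsf10 (adjusted p = 0.00306), 3.94 ± 0.325 for Tnfsf14 (adjusted p = 0.00162) and -1.19 ± 0.298 for Tnfrsf9 (adjusted p = 0.0418). Between the 21-week arrays, Tnfsf8 differed by 0.14 ± 0.255, Tnfsf10 by -0.38 ± 0.167 and Tnfsf14 by 0.92 ± 0.265, none called, and Tnfrsf9 was higher at 3 h by 2.52 ± 0.243 (adjusted p = 0.00132). Each 21-week group is 1 array, assumed to vary like the other groups, so the mouse, its age and the array cannot be told apart. The same arrays carried the high plasma cell markers (5.96 and 6.67 above the mean of WT at 0 h) and the low T cell markers (-1.73 and -2.69), whose part was not tested.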

How the results depend on the processing

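Counts of called genes depended on the 21-week arrays, array weights, the filter on dim probes and which arrays shared a fit. Counts out of the 10 genes on activation include Tnfsf4 here, which had to be higher in WT at 3 h. No paired analysis was possible because the labels carry no replicate numbers that pair arrays, and slide as a random block could not be fitted because the groups already encode the slides. On activation in WT, 5544 genes were called, against 10345 without the 21-week arrays, 9319 with a term for 21-week mice, 12215 with array weights, 2821 with no shift between arrays, 11263 from the WT arrays alone and 3629 to 7649 with 1 array left out (3 to 6 of the 10 genes). On activation in KO, 3183 became 8565, 7135 and 7799 under the first 3 of these (9, 8 and 9 of the 10 genes), 1915 with no filter on dim probes (2 genes), 104 from the KO arrays alone (0 genes) and 1802 to 6891 with 1 array left out (1 to 9 genes); with no shift between arrays 2 genes were called. KO against WT at 0 h had 385 genes, against 1229 without the 21-week arrays, 760 with the term for age, 2146 with array weights (4, 1 and 4 of the 10 genes), 220 with probes detected on every array and 81 to 1095 with 1 array left out (0 to 3 genes). At 3 h, 268 became 423 with array weights (1 gene), 5075 with no filter, 118 with no shift, 158 with only the probes detected everywhere, 0 from those 6 arrays alone (1396 at an unadjusted p under 0.05) and 130 to 562 with 1 array left out (0 genes); without the 21-week arrays 367 genes and 2 of the 10 were called. For the difference of activation effects, 0 became 2 with the percentile over all probes, 1 with the term for age, 2 with array weights, 4 with the deposited log2 table, 1 with probes averaged per gene, 4 with quantile normalization and 0 to 1 with 1 array left out (0 of the 10 genes).

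Signs turned only for uncalled values. Without the 21-week arrays, the differences of activation effects were 0.23 for Tnfrsf9, 0.11 for Tnfsf8 and 0.19 for Tnfsf9, and KO against WT was -0.51 for Tnfsf10 and 0.39 for Tnfsf8 at 3 h and 0.10 for Tnfsf14 at 0 h. With array weights these were 0.20, 0.04, 0.28, -0.45, 0.28 and 0.04. With the term for age, Cd27 at 0 h was 0.02 and Tnfsf10 at 3 h -0.19. Tnfsf10 at 3 h was also -0.16 with the percentile over all probes, -0.20 in the deposited table, -0.37 with no shift and -0.18 after quantile normalization. Tnfsf8 at 0 h was -0.08 with the percentile over all probes, and the difference of effects was -0.16 for Tnfrsf1b with no shift, 0.01 for Tnfrsf9 and 0.02 for Tnfsf9 after quantile normalization and 0.01 for Tnfsf9 in the deposited table. Tnfsf14 on activation was 0.92 in the 21-week KO arrays alone. With 1 array left out, values ran from -0.05 to 0.28 (Tnfsf8) and -0.24 to 0.10 (Tnfsf14) at 0 h, -1.36 to 0.39 (Tnfsf8) and -0.51 to 0.34 (Tnfsf10) at 3 h, and -1.08 to 0.79 for Cd27 on activation in KO. For the difference of effects they ran from -1.46 to 0.29 (Tnfsf8), -0.26 to 0.41 (Tnfsf9), -0.24 to 1.43 (Tnfrsf4), -0.94 to 1.00 (Tnfrsf9), -0.15 to 0.97 (Tnfrsf1b) and -1.25 to 0.62 (Cd27). Tnfsf4, Tnfsf10 and Tnfsf14 kept their calls in WT under every alternative that could be fitted; Tnfsf4 was not tested among probes detected on all arrays. With no shift between arrays, the median of all genes was -0.36 for KO against WT at 3 h and -0.34 for activation in KO, in place of 0.04 and -0.04, and 10.9% in place of 43.0% of the KO activation calls were rises (54.2% with normexp). At 0 h, 87.5% of the genotype calls were rises, against 73.0% with the percentile over all probes. The cause of these changes was not tested. The dim Tnfsf4 signal at 0 h limits its fold to a bound.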

Other observations

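Neighbouring genes of the family, picked for their position after the values were seen, had differing values. On chromosome 17 the probes of Tnfsf9, Cd70 and Tnfsf14 follow each other at distances of 38.4 kb and 43.7 kb (mm9), and on activation in WT Tnfsf9 rose by 1.20, whereas Tnfsf14 fell by 4.06 and Cd70, dim on 2 of 3 WT arrays at 3 h, had a measured difference of -2.64. On chromosome 4 the probes of Tnfrsf1b and Tnfrsf8 lie 80.2 kb apart, and the WT differences were 0.74, not called over 12 arrays, and -1.58, with Tnfrsf8 dim on 2 of 3 WT arrays at 3 h. On chromosome 1, Tnfsf4 and Tnfsf18, the ligand of GITR, lie 87.3 kb apart. Tnfsf18 was well above background on 0 of 6 WT arrays, while Tnfsf4 rose at least 7.36-fold in WT. Tnfsf4 was tested only through WT at 3 h, so it had to be higher there. With normexp its WT difference was 1.37 ± 0.172.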
